A study of Mus musculus with 8 samples.

Results

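The comparison described here set LSK cells lacking Ezh2 against wild-type LSK cells, 2 of the 8 arrays of the series. LSK cells lack mature lineage antigens and carry c-Kit and Sca-1, a gate that encloses the blood stem cells and the earliest progenitors of the marrow. WT came from CD45.2 donor cells with an inducible Cre (Cre-ERT) and intact Ezh2, and Ezh2_deleted from CD45.2 donor cells with the same Cre and floxed Ezh2, deleted after transplantation. Both sets of donor cells had received an empty retrovirus and were grafted, beside wild-type CD45.1 marrow, into lethally irradiated recipients. The strain was C57BL/6, and cells were taken at month 4 as pools from 2 to 4 mice. The sources used here do not give the inducing agent, the age and sex of the animals or the antibodies of the sort. Wild-type CD45.1 competitor LSK cells of month 4 gave a noise reference, 1 array from recipients of RUNX1S291fs cells (the RUNX1-recipient array) and 1 from recipients of cells with RUNX1S291fs and Ezh2 deletion (the double-recipient array). Of 20639 genes with a named probe, 14081 were well above background on at least 1 of the 2 arrays compared, 12895 of them on both, 340 on Ezh2_deleted alone and 846 on WT alone. Since each group is 1 array, no difference below has a test, and the 3 wild-type arrays give the spread against which it is read.

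Ezh2 is the main catalytic subunit of polycomb repressive complex 2 (PRC2), which places methyl groups on lysine 27 of histone H3 at silent genes. Its known targets include the Cdkn2a locus, developmental regulators and Hox genes, and H3K27 methylation in marrow accompanies the silencing of genes of other lineages and other stages of development. Ezh1 is a second catalytic subunit that can act in place of Ezh2. In the B lineage, Ezh2 is known to be needed for the step from pro-B to pre-B cells.

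Levels are log2 fluorescence intensity relative to the 75th percentile of the array, so that a probe at that percentile is at 0. A gene not well above background on an array has only an upper bound there, and for differences it took, as a floor, the array's dimmest signal marked as above background, at -5.25 on WT, -4.45 on Ezh2_deleted, -3.79 on the RUNX1-recipient array and -5.10 on the double-recipient array. A fold against such a gene is written "at least". Where levels of several arrays are listed, dim values are the measured ones. WT lay on slide 1, while Ezh2_deleted and both competitor arrays lay on slide 2, so slide and genotype cannot be told apart in the pair with WT, and the competitor arrays give the values within the slide. The RUNX1-recipient array was the dimmest, with 43.9% of probes well above background against 55.3% on WT, 50.7% on Ezh2_deleted and 49.9% on the double-recipient array. It also stood apart from the other wild-type arrays in its gene content, with a mean level of the stem cell list of -0.02 against 1.78 on WT and 1.96 on the double-recipient array. Each gene name rests on its brightest probe.

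The targeted gene gave no sign of the deletion in its probe. Ezh2 stood at 3.46 on WT, 4.01 and 3.84 on the RUNX1-recipient and double-recipient arrays, and 3.51 on Ezh2_deleted, a difference from WT of 0.05 log2. The sources used here do not place the probe in the transcript. A probe outside the deleted exons would read as it does here, so the label could not be checked from it. Kit and Ly6a, for the c-Kit and Sca-1 of the gate, were well above background on all these arrays, as were Cd34 and Ptprc, listed with them. None of these 4 genes differed by 2-fold from WT. Kit, the stem cell factor receptor, was at 4.99 on WT and 4.23 on Ezh2_deleted, and Ly6a, which encodes Sca-1, at 3.74 and 3.40. Of the lineage antigens listed, Cd8a was dim on Ezh2_deleted and Ly6g had no matched probe.

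The pools differed in sex-linked transcripts. Eif2s3y, a Y-linked translation factor, stood at 2.71 on Ezh2_deleted and was not well above background on any of the 3 wild-type arrays, so it was at least 249-fold higher than WT. Ddx3y was at 1.74 on Ezh2_deleted and likewise dim on the wild-type arrays, and Uty at -2.86. Xist, the RNA that coats the inactive X chromosome, was at 1.33 on WT, 1.78 and 1.19 on the competitor arrays and not well above background on Ezh2_deleted, at least 54.9-fold lower than WT. Among X-linked genes that escape inactivation, Kdm6a, Kdm5c, Eif2s3x and Ddx3x differed from WT by -0.47 to -0.26 log2 and Usp9x by 0.29, and the second probe of Eif2s3x differed by 1.03. Jpx and Ftx, noncoding genes beside Xist, differed by -1.21 and -0.80. Across all genes of the X chromosome, 49 of 492 (9.96%) were at least 2-fold higher and 16 (3.25%) lower. These shares were near those over all genes, 7.82% and 3.9%. The sex of the cells and the loss of Ezh2 cannot be told apart in this pair. Leaving out chromosomes X and Y left 1048 of 1101 higher and 533 of 549 lower genes.

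Against WT, more genes were higher than lower on Ezh2_deleted. At least 2-fold higher were 1101 of 14081 genes (7.82%) and at least 2-fold lower 549 (3.9%), together 11.7% of the genes measured. The 2 competitor arrays, both wild-type and on the same slide, were further apart in the bulk of their genes, with 1241 of 13243 (9.37%) higher and 962 (7.26%) lower on the RUNX1-recipient array, together 16.6%. The median absolute difference was 0.32 log2 between Ezh2_deleted and WT and 0.44 between the competitor arrays. The number of genes 2-fold apart was thus smaller than between 2 wild-type arrays. Against the RUNX1-recipient array, 9.2% of genes were higher and 11.3% lower on Ezh2_deleted, and against the double-recipient array 6.46% and 4.07%. WT itself was 2-fold from the RUNX1-recipient array in 18.3% of genes (11.3% higher and 7.03% lower on the competitor) and from the double-recipient array in 7.24% (4.59% and 2.65%). Far from WT, 165 genes were higher by 8-fold or more and 8 lower on Ezh2_deleted than on WT, against 46 and 50 between the competitor arrays. More higher than lower genes were also seen when the wild-type competitor arrays were set against WT, with 111 and 32 by 8-fold or more on the RUNX1-recipient array and 45 and 8 on the double-recipient array. Of the genes called against WT, 66.7% were higher. With arrays centred on the spike-in probes, the median of all genes moved from -0.03 to -1.09 and this share was 4.17%, so directions below are relative to the 75th percentile. Where a called gene had a second measured probe, that probe lay on the same side for 148 of 163 higher genes and 96 of 111 lower genes, and none was 2-fold the opposite way. Second probes dim on both arrays, such as those of Cdkn2a, Cdkn2b and Adgra1, were left out of these counts.

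**Figure D1:**
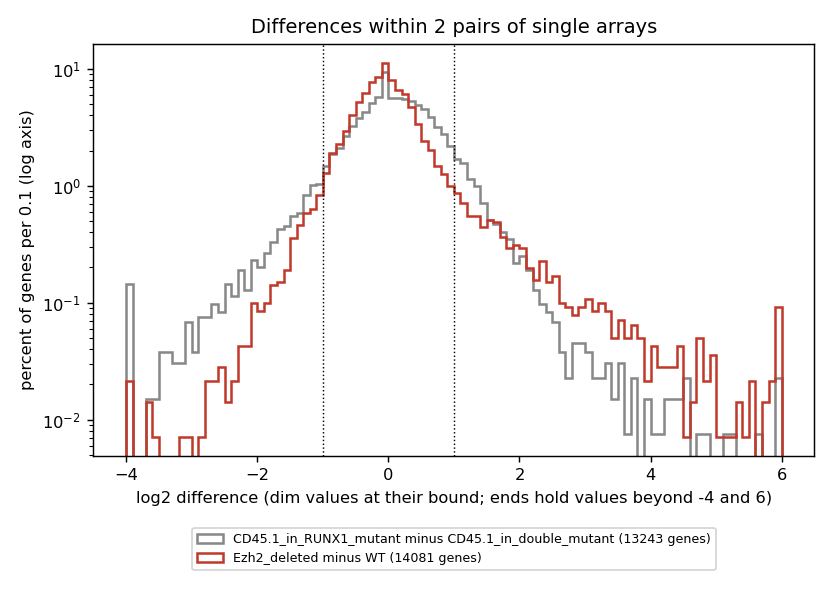
Distribution of log2 differences between Ezh2_deleted and WT (red, 14081 genes) and between the competitor arrays (grey, 13243 genes), in percent of genes per 0.1 log2 on a log axis. The grey curve is wider near 0 (median absolute difference 0.44 against 0.32), and the red curve has the longer tail to the right (165 against 46 genes at least 8-fold higher).

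**Figure D2:**
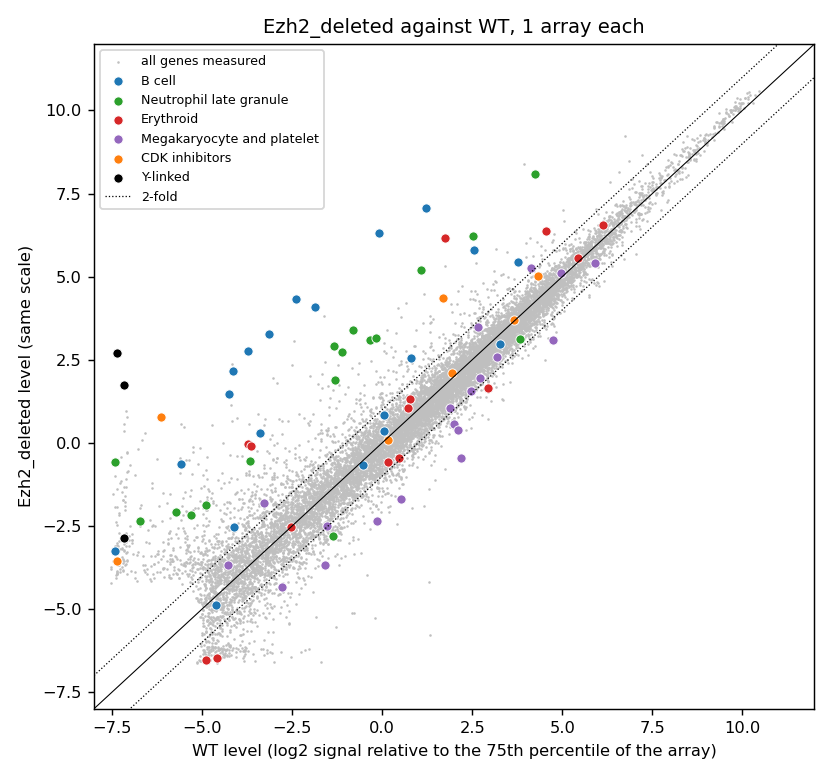
Measured level of each gene on Ezh2_deleted (vertical axis) against WT (horizontal axis), both as log2 signal relative to the 75th percentile of the array, 1 grey point a gene, with dotted lines at 2-fold. Coloured genes show B cell and late neutrophil granule genes above the upper line, most megakaryocyte genes on or below the diagonal, and Cdkn2a at -6.15 on WT and 0.77 on Ezh2_deleted.

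A level outside all 3 wild-type arrays was rarer. At least 2-fold above the highest of them were 361 of 13235 genes well above background on Ezh2_deleted (2.73%), and at least 2-fold below the lowest were 100 of 11857 genes well above background on all 3 (0.843%). Of these 361 genes, 25 belonged to the B cell, plasma cell, T and NK cell, late neutrophil granule or red cell lists. The other cell type lists, such as those of dendritic cells, basophils and eosinophils, were not part of this count. The number depends on the wild-type arrays chosen, since 620 genes were above the other 2 without the RUNX1-recipient array. In all, 227 genes were well above background on Ezh2_deleted and on none of the wild-type arrays, and 43 on all 3 wild-type arrays but not on Ezh2_deleted.

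Apart from the Y-linked genes, the widest margin above the wild-type arrays was that of Xcr1, the receptor for the chemokine Xcl1 on cross-presenting dendritic cells. Xcr1 was at 0.96 on Ezh2_deleted and not well above background on any wild-type array, at least 26.9-fold above each. Clec9a, which marks the same dendritic cells, was not well above background on Ezh2_deleted, and Batf3, their transcription factor, was at -3.85 there against -4.49 on WT and -1.24 and -2.64 on the competitor arrays. The Xcr1 level was therefore not matched by the other genes of that cell type.

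Several other genes with wide margins are known from tissues outside the marrow. Vmn1r236, a vomeronasal receptor, was at 0.78 on Ezh2_deleted and dim on WT and the RUNX1-recipient array, at least 23.8-fold above the wild-type arrays. Rnf133, a ubiquitin ligase of the testis, was at 0.56, at least 20.3-fold above them. Fxyd6, a regulator of the sodium pump, stood at -4.16 on WT, -4.89 (dim) and -1.97 on the competitor arrays and 2.37 on Ezh2_deleted, 91.9-fold higher than WT and 20.2-fold above the highest wild-type array. The array holds 1 named probe for each of Xcr1, Vmn1r236, Rnf133 and Fxyd6, so each level rests on that probe.

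Card14, a scaffold for NF-kappaB signalling in skin, was at -3.44 on WT, -3.48 (dim) and -3.71 on the competitor arrays and 0.87 on Ezh2_deleted, a 19.7-fold margin. Galnt14, an enzyme of O-glycosylation, showed a 19.5-fold margin by its brightest probe, while its second probe was dim on Ezh2_deleted. Rnase12 was well above background on every array, at -1.58 on WT, -1.32 and -1.49 on the competitor arrays and 2.45 on Ezh2_deleted, 13.6-fold above the highest. Here the 3 wild-type arrays lay close together, and Ezh2_deleted far from them. With both RUNX1S291fs and Ezh2 deletion, Rnase12 was at -1.80 at month 4 and -2.02 and -3.64 in the moribund mice. Pga5, a pepsinogen of the stomach, Adgra1, an adhesion receptor of the brain, and Mtnr1b, a melatonin receptor, were dim on all 3 wild-type arrays and at 0.47, 0.34 and 0.30 on Ezh2_deleted. A second Adgra1 probe for the same transcript record was dim on Ezh2_deleted, at -6.35, and on every other array. Smc1b, the cohesin subunit of meiosis, was at -0.17, at least 12.3-fold above the wild-type arrays. Also in this group were BC021767, Pglyrp4, Tnfrsf19 and Ttll11, each at least 10.2-fold above. For Tnfrsf19, the second probe differed from WT by at least 1.12 log2, against at least 4.43 for the brightest. On the arrays with both RUNX1S291fs and Ezh2 deletion, Xcr1, Rnf133 and Smc1b were dim on all 3 and Fxyd6 was well above background on 1 of 3, at -4.36. Ttll11, at -0.43 on Ezh2_deleted, was dim on the month 4 array with both lesions and higher in the moribund mice, at 1.19 and 1.79. BC021767 and Mtnr1b were each well above background on 1 of the 3 arrays, at -2.99 and -4.08, below their levels on Ezh2_deleted.

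CDK inhibitors, which hold back the cell cycle, include the best known PRC2 target. Cdkn2a encodes p16Ink4a and p19Arf, which act on the Rb and p53 pathways. It was at -6.15 (dim) on WT, -5.60 (dim) and -3.0 on the competitor arrays and 0.77 on Ezh2_deleted. The array of Ezh2-deleted cells lay above all 3 wild-type arrays, at least 64.7-fold above WT and 13.6-fold above the double-recipient array, the highest of them. It was well above background on the 3 arrays with both lesions too, at -0.92 at month 4 and 1.92 and 2.41 in the moribund mice, and dim at -6.19 on the RUNX1S291fs array with intact Ezh2. All 4 arrays without Ezh2 thus lay above all 4 arrays with it, as they did for 116 of 13235 genes well above background on Ezh2_deleted (0.876%), and the double-recipient array, with wild-type cells, was also well above background. A second probe for the same transcript record was dim on Ezh2_deleted (-4.06) and on every array with intact Ezh2, so the level rests on 1 probe, and the files do not pair the probes with p16Ink4a or p19Arf.

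Cdkn2b, the neighbour of Cdkn2a that encodes p15Ink4b, was at -3.55 on Ezh2_deleted and dim on all 3 wild-type arrays, at least 3.25-fold higher than WT and at least 1.18-fold above each. With both lesions it was dim at month 4 (-4.65) and well above background in the moribund mice (-2.15 and -2.72). A second Cdkn2b probe for the same transcript record was dim on every array, at -6.15 on Ezh2_deleted, so the level rests on 1 probe. Cdkn1a, which encodes the p53 target p21, was at 1.69 on WT, 2.59 and 3.61 on the competitor arrays and 4.35 on Ezh2_deleted, 6.34-fold higher than WT and 1.67-fold above the highest wild-type array. Cdkn2c (0.18 log2 from WT), Cdkn2d (0.70) and Cdkn1c (-0.07) did not reach 2-fold. Of the 7 inhibitors, 3 were at least 2-fold higher than WT and 0 lower (7.82% and 3.9% of all genes), with a median difference of 0.70 against -0.03 for all genes, and 1 was 2-fold above all wild-type arrays (2.73% of all genes). With spike-in centring the median of the list is -0.36. Against the competitor arrays of the same slide it was 0.77 and 0.46.

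PRC2 is known to occupy CpG-rich promoters, so the promoters of the locus are shown beside that of Igll1, a B lineage gene described further on, to compare their CG content. The stretches are the 250 bases before the annotated transcription start, from RefSeq (GRCm38.p6), read 5′ to 3′ along the strand of the gene, with every CG in capitals. The 2 starts of Cdkn2a lie at chr4:89294620-89294869 (minus strand, 40 CG) and chr4:89282193-89282442 (minus strand, 7 CG), that of Cdkn2b at chr4:89311033-89311282 (minus strand, 12 CG) and that of Igll1 at chr16:16863986-16864235 (minus strand, 1 CG).
Cdkn2a start 1: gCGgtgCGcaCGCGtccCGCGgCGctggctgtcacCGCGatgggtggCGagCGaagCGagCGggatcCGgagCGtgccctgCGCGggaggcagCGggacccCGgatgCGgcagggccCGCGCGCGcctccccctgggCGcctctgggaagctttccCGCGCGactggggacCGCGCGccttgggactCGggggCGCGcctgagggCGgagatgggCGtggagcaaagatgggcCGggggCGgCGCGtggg
Cdkn2a start 2: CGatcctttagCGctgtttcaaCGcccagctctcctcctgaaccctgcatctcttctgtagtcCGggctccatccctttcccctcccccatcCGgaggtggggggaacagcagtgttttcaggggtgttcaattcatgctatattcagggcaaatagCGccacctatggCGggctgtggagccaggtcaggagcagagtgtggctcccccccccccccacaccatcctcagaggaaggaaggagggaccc
Cdkn2b: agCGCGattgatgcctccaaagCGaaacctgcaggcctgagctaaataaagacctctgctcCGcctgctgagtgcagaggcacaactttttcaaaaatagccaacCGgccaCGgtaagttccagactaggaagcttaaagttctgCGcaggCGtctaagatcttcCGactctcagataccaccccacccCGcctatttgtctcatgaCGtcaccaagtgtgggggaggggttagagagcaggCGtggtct
Igll1: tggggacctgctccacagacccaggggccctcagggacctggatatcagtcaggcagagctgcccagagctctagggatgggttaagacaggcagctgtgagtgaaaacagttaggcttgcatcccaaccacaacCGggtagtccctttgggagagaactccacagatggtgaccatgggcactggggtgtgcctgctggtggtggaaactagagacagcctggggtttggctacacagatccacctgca
The CG count of 300 bases around the first listed start had a median of 26 over the 6 CDK inhibitors with a promoter entry, against 7 over all 27025 promoters and 19 over the genes measured here. The 171 genes with an entry among those well above background on Ezh2_deleted and on no wild-type array had a median of 7, and the 270 with an entry among those 2-fold above all wild-type arrays 12. Genes dim on all 4 arrays had a median of 4. The median of both sets thus lay below that of the genes measured and at or above that of all promoters, and the first of them, chosen for being dim on the wild-type arrays, above that of the genes dim on all 4 arrays.

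PRC2 itself differed little. None of the 11 core and accessory subunits was 2-fold from WT, with a median difference of -0.20. The second catalytic subunit Ezh1 was at 4.36 on WT, 3.45 and 4.14 on the competitor arrays and 3.78 on Ezh2_deleted, within the wild-type range. Eed, the subunit that reads the mark, and Suz12, which holds the complex together, differed from WT by -0.30 and 0.02. Rbbp4, Rbbp7, Jarid2, Aebp2, Phf1, Mtf2 and Phf19 lay between -0.58 and 0.44.

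Of 19 measured genes of PRC1, the complex that reads H3K27 methylation and marks histone H2A, 1 was 2-fold lower and none higher. The shares over all genes were 3.9% and 7.82%. That gene was Cbx8, a reader subunit, at -0.11 on WT, -0.65 and -0.89 on the competitor arrays and -1.99 on Ezh2_deleted, 3.69-fold lower than WT and 2.15-fold below the lowest wild-type array. Bmi1, the subunit needed for stem cell self-renewal, was at 2.58 on WT and 3.46 on Ezh2_deleted, below 2-fold. Among H3K27 demethylases and trithorax-group genes, the demethylase Kdm6b was 2.70-fold higher than WT and 1.62-fold above the highest wild-type array. Asxl2 and Asxl1, partners of the H2A deubiquitinase Bap1, were 2.07-fold and 2.00-fold lower than WT, and within 2-fold of the lowest wild-type array. A second Asxl2 probe for the same transcript record differed from WT by -0.05 log2.

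Developmental regulators, another class of polycomb target, were mostly dim on both arrays. Of 33 developmental regulators listed, 24 were dim on both arrays and 9 were measured. Of these 9, 3 were at least 2-fold higher and none lower (7.82% and 3.9% of all genes). Lhx2, a homeobox gene, was at -2.51 on Ezh2_deleted and dim on the 3 wild-type arrays, at least 2.43-fold above each. On the arrays with both lesions, Lhx2 was dim at month 4 and in the moribund mice. Foxa1 and Eomes were at least 2.71-fold and at least 2.61-fold higher than WT but not 2-fold above the double-recipient array, where they were well above background at -3.17 and -3.81. Of 12 measured imprinted genes, 1 was higher (Mirg, at least 2.57-fold) and 1 lower (Phlda2, at least 2.96-fold), and neither lay outside the wild-type range by 2-fold.

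The oncofetal genes, active in fetal stem cells and kept low in the adult, gave 2 of 6 measured genes at least 2-fold higher and above all wild-type arrays. The shares over all genes were 7.82% at least 2-fold higher than WT and 2.73% 2-fold above all wild-type arrays. Hmga2, a chromatin protein that promotes fetal self-renewal, was at -0.16 on WT, -1.57 and -0.36 on the competitor arrays and 2.16 on Ezh2_deleted. It was 5.0-fold higher than WT, the highest wild-type array, and its second probe differed by 3.03 log2. Hmga2 was at 1.83 on the RUNX1S291fs array with intact Ezh2 and 1.12 on the month 4 array with both lesions, so a level above the wild-type arrays was not limited to cells without Ezh2. Igf2bp3, an RNA-binding protein of fetal cells, was dim on the 3 wild-type arrays and at -2.50 on Ezh2_deleted, at least 2.45-fold above each. On the arrays with both lesions it was at -0.08 at month 4 and dim in both moribund mice. Lin28a differed from WT by 0.46, and Lin28b and Igf2bp1 were dim on both arrays. The median of the list was 0.32, and -0.74 with spike-in centring.

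Hox genes differed in both directions. Of 39 genes, 18 were measured, 4 at least 2-fold higher and 7 lower (7.82% and 3.9% of all genes), with a median of -0.47. Hoxa10, which drives progenitor expansion, was at -0.59 on WT, -2.25 and -1.33 on the competitor arrays and 0.88 on Ezh2_deleted, 2.76-fold above all 3. With both lesions Hoxa10 was below the wild-type arrays at month 4 (-4.31) and dim in the moribund mice. Hoxb7 was dim on the wild-type arrays and at -2.55 on Ezh2_deleted, at least 2.36-fold above each, and dim on all 3 arrays with both lesions. In the same cluster, Hoxb2 was lower, at 1.30 on WT, 0.21 and 1.15 on the competitor arrays and -1.38 on Ezh2_deleted, 3.02-fold below the lowest. With both lesions Hoxb2 was also low, at -1.69 at month 4 and dim in the moribund mice. Hoxc6 was at -0.19 on WT and dim on Ezh2_deleted, at least 19.1-fold lower, and also dim on the RUNX1-recipient array, so the wild-type arrays themselves spanned this range. Hoxa9, the Hox gene best known in leukaemia, differed by 0.42.

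Apart from the Y-linked genes, the B cell list had the largest median difference from WT of the lists measured, followed by the late neutrophil granule genes. Igll1, Vpreb1 and Vpreb3 encode the surrogate light chain and a partner of the pre-B cell receptor. Igll1 was at -2.39 on WT, -3.55 (dim) and 1.09 on the competitor arrays and 4.34 on Ezh2_deleted. Vpreb1 was at 1.22 on WT, 1.27 and 3.87 on the competitor arrays and 7.06 on Ezh2_deleted. Ezh2_deleted lay above all 3 wild-type arrays for both, and the double-recipient array above the other 2. In folds, Igll1 was 106-fold higher than WT and 9.55-fold above the double-recipient array, and Vpreb1 57.1-fold and 9.10-fold. Vpreb2 is nearly identical in sequence to Vpreb1, so their probes may share signal.

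Vpreb3 was at -0.09 on WT, -0.66 and 3.70 on the competitor arrays and 6.32 on Ezh2_deleted. Ebf1, the factor that commits progenitors to the B lineage, was at -4.24 on WT, -4.85 (dim) and -0.69 on the competitor arrays and 1.49 on Ezh2_deleted, 52.9-fold higher than WT and 4.52-fold above the highest wild-type array. Pou2af1, a coactivator of octamer-binding factors, was at -3.73 on WT and 2.76 on Ezh2_deleted, with -2.11 and 0.86 on the competitor arrays. Cd79a, a signalling chain of the pre-B and B cell receptors, was at least 24.4-fold higher than WT. Pax5, which maintains B cell identity, was low at -3.26 on Ezh2_deleted and dim on the wild-type arrays, at least 3.97-fold higher than WT. Ms4a1, Blk, Fcrla and Ciita were dim on Ezh2_deleted.

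Of the 23 B cell genes, 20 were measured, 15 at least 2-fold higher and none lower, a share well above the 7.82% of all genes, and 12 were 2-fold above all 3 wild-type arrays, where 2.73% of all genes were. The median difference was 3.47, and 2.41 with spike-in centring. Within the slide, the median was 3.31 against the RUNX1-recipient array and 1.84 against the double-recipient array. The competitor arrays differed from each other in the same list by a median of -0.97. The list had a mean level of 1.89 on Ezh2_deleted and -1.67 on WT. It was at -3.31 to -2.14 on the 3 arrays with RUNX1S291fs and Ezh2 deletion, and at -2.15 on the RUNX1S291fs array with intact Ezh2. In RNA from pooled cells, more cells of a type and more RNA per cell cannot be told apart.

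Related lymphoid genes went the same way in part. For the counts that follow, 7.82% of all genes were at least 2-fold higher than WT and 3.9% lower. Of 8 plasma cell genes, 3 were at least 2-fold higher: Mzb1 (45.4-fold), Irf4 (28.3-fold) and Jchain (31.7-fold). Irf4, a factor of pre-B and plasma cells, was 3.34-fold above the highest wild-type array, while Jchain was higher on the double-recipient array (2.59) than on Ezh2_deleted (1.96). Of 15 genes of lymphoid-primed progenitors, 2 were higher. Rag1, a recombinase of antigen receptor genes, was at -2.03 on WT and 0.55 on Ezh2_deleted, 5.97-fold higher and 2.04-fold above the highest wild-type array. Flt3 (0.19), Il7r (0.89) and Rag2 (0.59) stayed within 2-fold of WT. Id3, an inhibitor of E proteins that is high in lymphoid cells, was at -1.62 on WT, -0.44 and 2.20 on the competitor arrays and 3.81 on Ezh2_deleted, 43.2-fold higher than WT and 3.06-fold above the highest. Of 19 T and NK cell genes, 7 were higher and 1 lower, Gata3. Cd2 was 8.94-fold higher than WT and 3.71-fold above the highest wild-type array, the only one of these 7 to be 2-fold above all 3. The T and NK cell median was 0.54, and -0.52 with spike-in centring.

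The same order of arrays, with the double-recipient array second, was seen for Gfra2 and Cd83. Gfra2, a coreceptor for neurturin, was at -3.19 on WT, -3.61 (dim) and 1.16 on the competitor arrays and 3.32 on Ezh2_deleted. Cd83, a surface protein of activated B and dendritic cells, was at -3.14, -0.04, 0.26 and 3.27 in the same order, 84.5-fold higher than WT and 8.01-fold above the highest wild-type array.

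**Figure D3:**
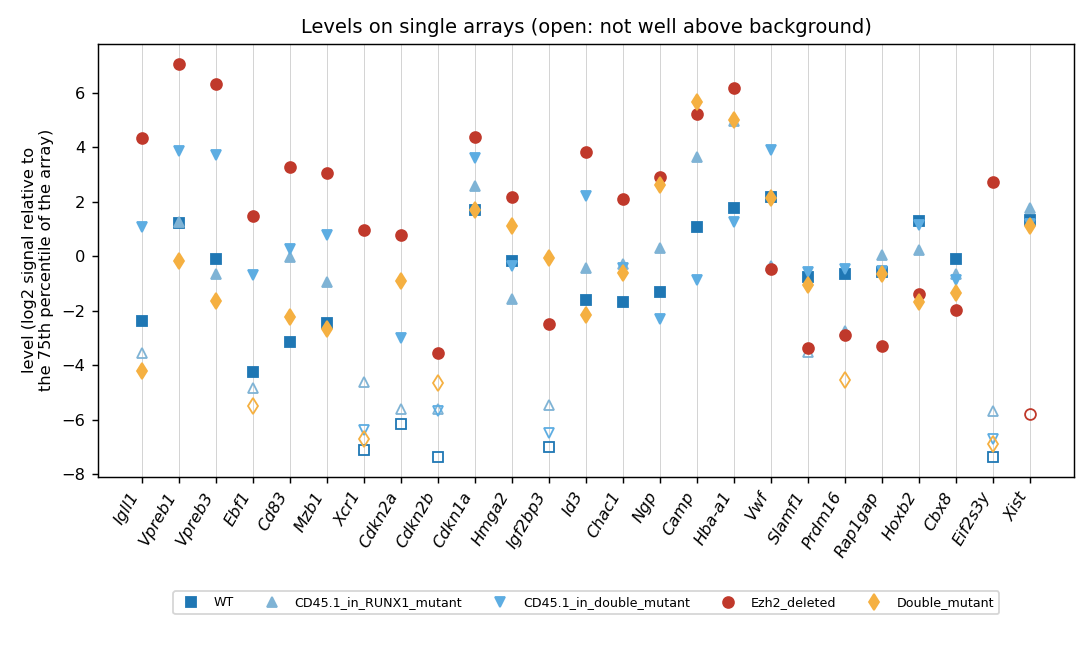
Level of named genes (log2 signal relative to the 75th percentile of the array) on the 3 wild-type arrays (blue), Ezh2_deleted (red circles) and the month 4 array with both lesions (Double_mutant, orange), 1 point an array and open where not well above background. Red circles lie above all blue points from Igll1 to Hba-a1, while Vwf at -0.45, Slamf1 at -3.35 and Prdm16 at -2.90 lie near the RUNX1-recipient array.

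Late neutrophil granule genes also lay far from WT, and they varied among the wild-type arrays. Ngp, a granule protein of neutrophil precursors, was at -1.33 on WT, 0.31 and -2.32 on the competitor arrays and 2.90 on Ezh2_deleted. Camp, the cathelicidin, was at 1.08, 3.65, -0.87 and 5.20 in the same order, and Ltf, lactoferrin, at -0.80, 1.78, -1.21 and 3.39. In each case Ezh2_deleted was highest and the RUNX1-recipient array next. Ngp was 18.7-fold higher than WT and 6.02-fold above the highest wild-type array, Camp 17.4-fold and 2.93-fold, and Ltf 18.3-fold and 3.06-fold. S100a9, a calcium-binding alarmin, was 14.5-fold higher than WT but 1.75-fold above the RUNX1-recipient array. Stfa1 is one of several near-identical stefin genes, so its level of -0.59 may include its copies.

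Of the 17 measured genes of this list, 15 were at least 2-fold higher than WT and 1 lower (Cxcr2, a chemokine receptor of mature neutrophils), with a median of 3.32, or 2.26 with spike-in centring, and 8 were 2-fold above all 3 wild-type arrays. Of all genes, 7.82% were higher, 3.9% lower and 2.73% above all wild-type arrays. The competitor arrays differed from each other by a median of 2.91 in this list, close to the difference between Ezh2_deleted and WT, and Ezh2_deleted exceeded the RUNX1-recipient array by a median of 0.81 and the double-recipient array by 3.02. The early granule genes did not go with them: 1 of 8 was higher and 2 lower. Mpo, myeloperoxidase, was at 8.49 on WT, 10.51 and 9.19 on the competitor arrays and 8.07 on Ezh2_deleted, the lowest of the 4. Elane was at 2.82, 7.30, 4.79 and 2.93 in that order. Gfi1, a repressor needed by neutrophils and stem cells, was 2.64-fold lower than WT and 2.10-fold below the lowest wild-type array. Whether RNA from neutrophils in the sorted pools has a part in these values was not tested.

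The promoters of these lineage genes are shown for the motifs of the factors known to act on them, C/EBP for granule genes, the octamer for B cell genes and GATA for platelet genes. They are the 250 bases before the start from RefSeq (GRCm38.p6), 5′ to 3′ along the strand of the gene, at chr9:110419558-110419807 (plus strand) for Ngp, chr9:111019042-111019291 (plus strand) for Ltf, chr10:75948050-75948299 (plus strand) for Vpreb3 and chr16:30310782-30311031 (minus strand) for Gp5. Capitals mark the C/EBP motif TTGCNNAA in Ngp and Ltf, the octamer ATGCAAAT in Vpreb3 and the letters AGATAA bound by GATA factors in Gp5, each searched on both strands.
Ngp: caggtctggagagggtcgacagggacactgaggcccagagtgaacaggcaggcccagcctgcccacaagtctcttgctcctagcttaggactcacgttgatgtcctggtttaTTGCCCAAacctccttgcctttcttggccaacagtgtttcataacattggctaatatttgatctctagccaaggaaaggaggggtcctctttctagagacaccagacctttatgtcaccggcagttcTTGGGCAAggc
Ltf: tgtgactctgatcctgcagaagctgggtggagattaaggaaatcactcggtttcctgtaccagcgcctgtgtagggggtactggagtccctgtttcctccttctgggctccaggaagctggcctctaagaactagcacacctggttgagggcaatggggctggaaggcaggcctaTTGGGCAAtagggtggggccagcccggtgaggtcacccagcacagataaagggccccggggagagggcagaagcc
Vpreb3: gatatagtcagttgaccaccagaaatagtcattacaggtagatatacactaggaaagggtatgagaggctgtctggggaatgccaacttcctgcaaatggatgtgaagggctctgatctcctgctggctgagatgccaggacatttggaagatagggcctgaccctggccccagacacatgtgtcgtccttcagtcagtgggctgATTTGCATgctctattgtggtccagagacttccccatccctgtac
Gp5: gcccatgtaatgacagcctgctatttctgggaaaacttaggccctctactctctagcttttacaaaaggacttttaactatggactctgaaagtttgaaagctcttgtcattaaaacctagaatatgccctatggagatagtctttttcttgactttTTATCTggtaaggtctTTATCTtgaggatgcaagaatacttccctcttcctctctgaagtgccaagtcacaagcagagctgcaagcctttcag
In 300 bases around the start, the C/EBP letters were found in 7 of 15 late granule genes (46.7%), against 10.8% of all 27025 promoters. The octamer was found in 2 of 16 B cell genes (12.5%) against 1.75% of all, and the GATA letters in 4 of 16 megakaryocyte genes against 11.4%. The GATA letters were also in 5 of 15 late granule genes (33.3%) and in 0 of 16 B cell genes, and the C/EBP letters in 3 of 16 B cell genes and 1 of 16 megakaryocyte genes. The EBF motif, TCCC and GGGA with 2 bases between them, was in 1 of 16 B cell genes and 0.914% of all promoters. A match describes the letters and not a bound site.

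Genes of red cells gave 4 of 14 higher and 1 lower (7.82% and 3.9% of all genes). Hba-a1, an alpha globin, was at 1.76 on WT, 4.95 and 1.27 on the competitor arrays and 6.16 on Ezh2_deleted, 21.2-fold higher than WT and 2.31-fold above the RUNX1-recipient array. Its probe may not separate it from the other alpha globin copy. Alas2, the haem synthesis enzyme of red cells, was 13-fold higher than WT and 2.34-fold above the highest wild-type array. Slc4a1, the red cell anion exchanger, was 11.6-fold higher than WT and 1.33-fold above the highest. The erythroid factors Klf1 (0.00 log2 from WT) and Gata1 (-1.29) were not higher. The list median was 0.21, and -0.69 with spike-in centring. Of 13 monocyte and macrophage genes, 2 were higher, Cd14 and Klf4, and none lower, with a median of -0.40.

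**Figure D4:**
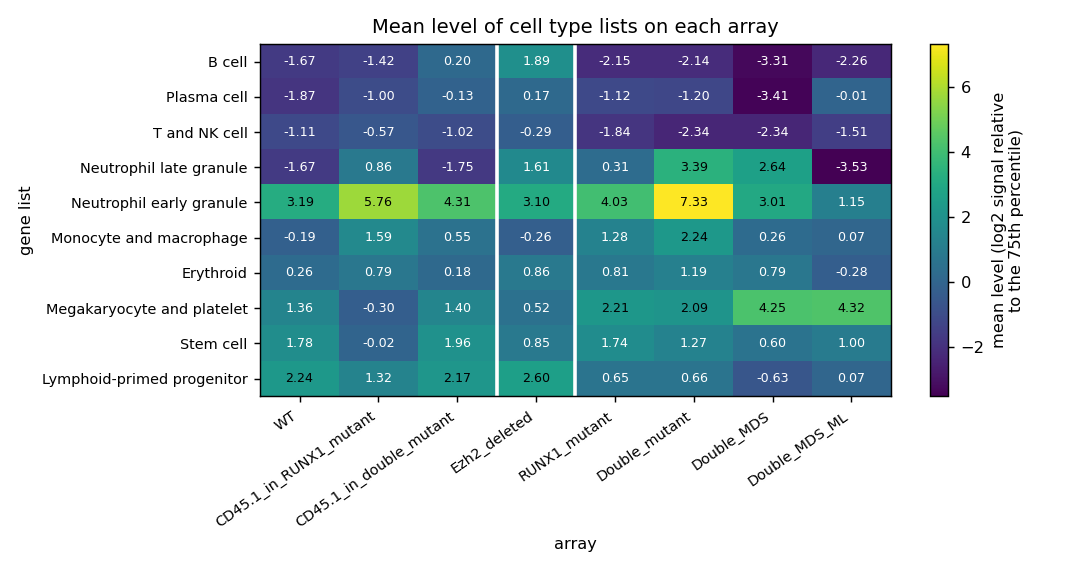
Mean measured level of the genes of each cell type list (vertical axis) on each of the 8 arrays (horizontal axis; Double_mutant, Double_MDS and Double_MDS_ML carry RUNX1S291fs and Ezh2 deletion, the latter pair from moribund mice), as log2 signal relative to the 75th percentile of the array, printed in the cell and coloured on the scale at the right, with Ezh2_deleted between white lines. The B cell list stood at 1.89 on Ezh2_deleted and at most 0.20 elsewhere, while the late neutrophil list was higher on Double_mutant (3.39) and Double_MDS (2.64) than on Ezh2_deleted (1.61).

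Many stem cell and megakaryocyte genes were lower on Ezh2_deleted than on WT, and the competitor arrays were further apart from each other in both lists. Slamf1, the CD150 antigen of long-term stem cells, was at -0.78 on WT, -3.53 (dim) and -0.58 on the competitor arrays and -3.35 on Ezh2_deleted, 5.96-fold lower than WT. Prdm16, a factor of stem cell maintenance, was at -0.66, -2.76, -0.46 and -2.90 in that order. Both lay near the RUNX1-recipient array and away from the other 2. Sult1a1, a sulfotransferase high in stem cells, was at -1.02, -1.98, 0.23 and -3.41, and thus 2.68-fold below the lowest wild-type array. Mycn was 4.03-fold lower than WT and Esam, an adhesion molecule of stem cells, 3.27-fold. Hlf (0.27 log2 from WT) and Procr (-0.18), which also mark long-term stem cells, did not follow.

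Of 26 stem cell genes, 12 were at least 2-fold lower and none higher, with a median of -0.91, where 3.9% of all genes were lower. Of the 22 well above background on all 3 wild-type arrays, 2 were 2-fold below all 3, Gfi1 and Sult1a1, where 0.843% of all genes were. The competitor arrays differed from each other in 20 of 27 genes, with a median of -1.64. Within the slide, the list was higher than on the RUNX1-recipient array by a median of 0.63, and the median difference from the double-recipient array was -0.95. Of 17 stem cell transcription factors, 3 were lower: Meis1 (2.18-fold), Tal1 (2.08-fold) and Fli1 (2.01-fold). None of these 3 was 2-fold below all wild-type arrays.

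Of 19 megakaryocyte and platelet genes, 8 were lower and 2 higher (3.9% and 7.82% of all genes). The median was -0.90, and none was 2-fold below all 3 wild-type arrays (0.843% of all genes). Vwf, the platelet adhesion protein that also marks platelet-primed stem cells, was at 2.18 on WT, -0.37 and 3.89 on the competitor arrays and -0.45 on Ezh2_deleted, 6.20-fold lower than WT. Gp5 and Gp1ba, subunits of the Vwf receptor, were 4.63-fold and 4.66-fold lower than WT and above the RUNX1-recipient array. Pf4, a platelet chemokine, was at 4.75, 1.78, 4.41 and 3.09 in the same order. The competitor arrays differed by a median of -1.51 in this list.

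Genes below the wild-type range were few apart from Xist. Rap1gap, which switches off the GTPase Rap1, was at -0.59 on WT, 0.03 and -0.54 on the competitor arrays and -3.31 on Ezh2_deleted, 6.58-fold below the lowest. Phldb2, a cytoskeletal protein, was at -0.43, -1.01, -1.45 and -3.97 in that order, 5.75-fold below the lowest. Tlr12, a receptor for profilin of parasites, was at 2.93, 2.88, 3.28 and 0.73, so the wild-type arrays lay close together and Ezh2_deleted was 4.43-fold below the lowest. Ffar2, a receptor for short-chain fatty acids, was 3.98-fold below, Tgfbi, a matrix protein, 3.28-fold and the sphingosine-1-phosphate receptor S1pr3 3.06-fold. Il4 and Zfp951 were dim on Ezh2_deleted, at least 6.12-fold and at least 7.05-fold below the lowest wild-type array. Gpc3 was lower too (4.27-fold) and lies on the X chromosome, where Xist also differed. On the month 4 array with both lesions, most of these genes lay within or close to the wild-type range. Rap1gap was at -0.66 there, Phldb2 at -1.56, Tgfbi at 3.49, S1pr3 at 0.44, Il4 at -0.71, Zfp951 at -1.94 and Gpc3 at -0.41. Tlr12 (1.90) and Ffar2 (1.56) were lower there than on any wild-type array. In the moribund mice, Rap1gap (-2.39 and -2.58) and Tgfbi (0.49 and 0.98) were below the wild-type arrays.

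Stress and signalling genes differed in both directions. Of 22 measured targets of NF-kappaB, 11 were at least 2-fold higher and none lower (7.82% and 3.9% of all genes), with a median of 0.94, and -0.12 with spike-in centring. Relb, a subunit of NF-kappaB, was at 0.04 on WT, -0.70 and 0.21 on the competitor arrays and 1.97 on Ezh2_deleted, 3.81-fold higher than WT. Nfkbia, its inhibitor and target, was at 5.03, 5.02, 5.86 and 7.01 in the same order. Both lay above the 3 wild-type arrays, as did Cxcl10 (2.73-fold above the highest) and Cd83. Tnf, Il1b and Cxcl2 were 4.11-fold, 7.78-fold and 5.80-fold higher than WT and within 1.58-fold of the highest wild-type array.

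Of 22 immediate early genes, 10 were higher than WT and 2 lower (7.82% and 3.9% of all genes), with a median of 0.93, and -0.13 with spike-in centring. Nr4a3, an orphan nuclear receptor, was 13.8-fold higher than WT and 2.66-fold above the highest wild-type array. Fos and Myc were the 2 lower ones. Myc, the growth-promoting factor, was at 4.51 on WT, 4.39 and 3.93 on the competitor arrays and 2.49 on Ezh2_deleted, 4.06-fold lower than WT and 2.71-fold below the lowest. Its partner in this list, Fos, was at 6.70, 7.15, 7.07 and 5.52. Against the competitor arrays the list medians were -0.15 and -0.81, so the difference from WT was not seen within the slide, and the competitor arrays differed by -0.87 from each other.

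Of 19 p53 targets, 7 were higher and 1, Rrm2b, lower (7.82% and 3.9% of all genes), with a median of 0.51, and -0.55 with spike-in centring. Bbc3, which encodes the death protein Puma, was at 2.45 on WT, 2.26 and 3.53 on the competitor arrays and 4.58 on Ezh2_deleted, 4.37-fold higher than WT and 2.07-fold above the highest. Tnfrsf10b, a death receptor, was 2.84-fold higher than WT and 2.37-fold above the highest. Pmaip1, which encodes Noxa, was 7.59-fold higher than WT and below the RUNX1-recipient array. Mdm2, the feedback inhibitor of p53, differed by 0.61. Among 12 apoptosis regulators the BH3-only genes Bcl2l11 (3.68-fold) and Bmf (2.07-fold) were higher than WT and at least 2.07-fold above every wild-type array, although Bmf differed from WT by -0.012 log2 with spike-in centring.

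Chac1, a glutathione-degrading enzyme induced by amino acid and folding stress, was at -1.67 on WT, -0.30 and -0.44 on the competitor arrays and 2.08 on Ezh2_deleted, 13.5-fold higher than WT and 5.20-fold above the highest. Its regulators Ddit3 (3.64-fold) and Atf4 (2.74-fold) were also higher than WT but within 1.31-fold of the highest wild-type array, and the other 15 genes of the unfolded protein response were within 2-fold of WT. Vegfa, the vascular growth factor, was 7.71-fold higher than WT and 1.92-fold above the highest wild-type array, and its second probe was higher than WT too, by 3.38 log2.

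Proliferation and several housekeeping programmes stayed near WT. Of 21 mitosis genes none was higher and 1, Aurkb, was lower, with a median of 0.32, and -0.74 with spike-in centring. Of 21 genes of DNA replication 2 were higher and none lower (7.82% and 3.9% of all genes). Ccne2, which encodes cyclin E2, was at -4.80 on WT, dim on both competitor arrays and at -1.45 on Ezh2_deleted, 10.2-fold higher than WT and at least 5.07-fold above the highest. Orc1 was 2.03-fold higher than WT, -0.038 log2 with spike-in centring, and below the RUNX1-recipient array. None of 26 interferon-stimulated genes and none of 14 genes of cholesterol synthesis was 2-fold from WT. Of 19 cytokine receptors 2 were higher, Gfra2 and Il18r1, and 2 lower, Csf2rb2 and Tnfrsf1a (again 7.82% and 3.9% of all genes). Csf2rb2 was 2.47-fold below the lowest wild-type array, and its near-identical copy Csf2rb 1.91-fold below it, so their probes may share signal.

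**Figure D5:**
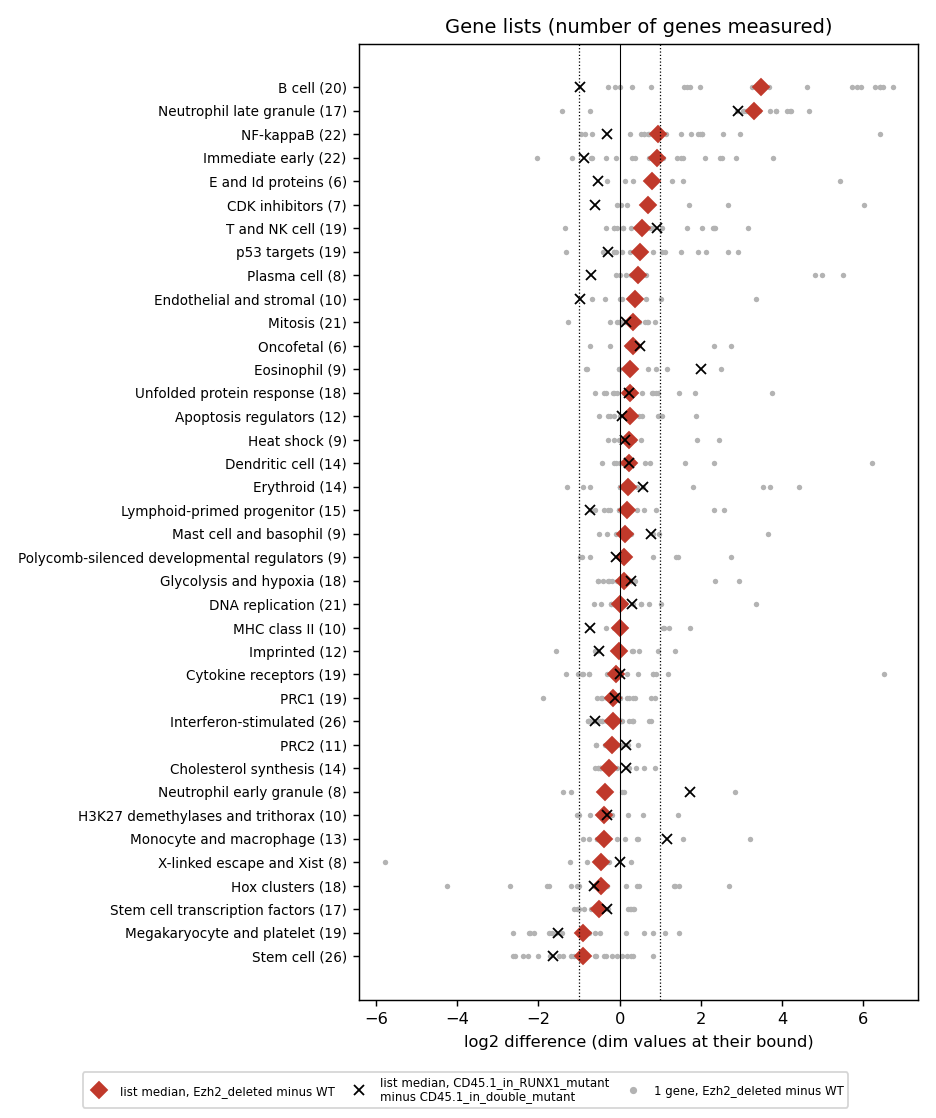
Log2 difference between Ezh2_deleted and WT for each gene of each list (grey points, dim values at their bound) and its median (red diamonds), with the median difference between the competitor arrays as black crosses and dotted lines at 2-fold (LSK gate, lineage antigen and Y-linked lists not drawn). The B cell list had a median of 3.47 with the cross at -0.97, the late neutrophil list 3.32 with the cross at 2.91, and the stem cell list -0.91 with the cross at -1.64.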

How the data were processed

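RNA of sorted LSK cells was measured on Agilent one-colour mouse arrays, 1 array for each of 8 groups. Per the labels' protocols, cRNA carrying Cy3 was made from 20 ng of total RNA, to which spike-in controls had been added. Per the file headers, Agilent Feature Extraction 10.7.1.1 quantified the arrays (design 028005), and the deposited processed signal is an intensity corrected for background array by array, unscaled across arrays. The series table deposited by the authors holds linear signal, and its values were those of the scanner divided by 1 factor per array. All columns were used (0 left out).

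From these values, each probe's log2 processed signal was set against its array's 75th percentile, using 59305 spots that are not controls, with outlier spots left out and repeat spots averaged. Probes were named through transcript accessions in RefSeq (GRCm38.p6): 27202 of 55636 probes could be named, for 20639 genes, and where a gene had several probes (5466 genes) the brightest over 8 arrays was kept. Well above background is the scanner software's own mark, and 0 probes were saturated. A gene was counted where it was at least 2-fold apart. With single arrays there is no test, and the number of arrays limits the precision. The median SD between repeat spots was 0.05 to 0.07 log2, which covers spotting only. The counting script was tested on simulated data.

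The comparison, the genes named and the 41 gene lists (617 of 631 listed genes had a probe) were chosen with earlier results of these data known. Named are the 20 genes furthest above and the 20 furthest below the wild-type arrays, up to 6 members of each list with the largest difference from WT, all PRC2, Y-linked and X-linked list members, and the 10 largest differences each way among genes well above background on both arrays. Other list members named in the text were chosen after their values were seen. Promoters came from the RefSeq table of the same assembly, and probe positions were not used here. Some genes of the lists are not reported here by name. The alternatives were normexp background correction in limma 3.58.1 (R 4.3.3, offset 50), quantile and loess normalization, spike-in centring, the series table, other treatments of dim values and of probes, chromosomes X and Y left out, a fold of 4, and, added after seeing the data, leaving out 1 wild-type array. Other steps used Python 3.11.15 with numpy 2.4.6 and pandas 2.3.3.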

Additional observations from a re-analysis of the deposited data

Results flagged for a closer look

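Probes without a gene name took no part in the comparisons above, and some of them carried signal on Ezh2_deleted alone. Of 28434 such probes, 13179 were well above background on Ezh2_deleted or WT, and 1250 of these (9.48%) were higher on Ezh2_deleted by 2-fold or more and 677 (5.14%) lower. In all, 340 were well above background on Ezh2_deleted and on none of the 3 wild-type arrays, and 89 of these were at least 2-fold above their bound on each wild-type array, the largest at least 46.5-fold. The sources used here do not say what these probes detect.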

How the results depend on the processing

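No paired analysis was possible because each group has 1 array and all share replicate number 1. Of 54 recomputed gene counts, 36 stayed within 1.5 times the value reported. These 36 include the counts from the series table, which differs by 1 factor per array and so had to return the same counts. With normexp background correction 595 genes were higher and 272 lower than WT, 150 above and 46 below all wild-type arrays, and 1213 apart between the competitor arrays. With spike-in centring these counts were 354, 8129, 236 and 217, in the same order without the competitor pair. At least 4-fold apart were 384 higher, 50 lower, 96 above, 9 below and 380 between the competitor arrays. Requiring every array to be well above background left 147 above all wild-type arrays. Without the RUNX1-recipient array 620 were above and 230 below the others, and without the WT array 256 were below. Quantile normalization gave 986 higher and 692 lower, a share of 58.8% higher, and measured values in place of the bound 58.7%. Of the named genes' recomputed differences 1900 moved by less than the spread of the wild-type arrays and 306 by more. With spike-in centring 61 of the 160 named differences above 0 turned below 0. Of those at 2-fold or more, these were Emcn (-0.046), Bmf (-0.012) and Orc1 (-0.038), and with the median over probes Mcf2l turned to 0.80. The causes were not tested. Signal over background limits the dim genes: of 14081, 378 had a bound that allows no fold.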

Other observations

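Higher genes were spread over the chromosomes, at 5.75% (chromosome 7) to 10.1% (chromosome 18) of the genes measured on each autosome, and lower genes at 2.26% (chromosome 16) to 6.19% (chromosome 13). On chromosome 7 the lower genes (68 of 1131) outnumbered the higher ones (65). All 4 measured genes of chromosome Y were higher.

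Some groups with few members outside the wild-type range held single genes far from WT. Among endothelial and stromal genes, Cxcl12, the chemokine of the marrow niche, was at -1.89 on Ezh2_deleted and dim on the 3 wild-type arrays, at least 3.73-fold above each, while Cdh5, Col3a1, Pdgfra, Acta2 and Adipoq were dim on Ezh2_deleted. Among mast cell and basophil genes, Cd200r3, a receptor of basophils, was at -1.60 and dim on the wild-type arrays, at least 4.56-fold above each, while Cma1, Mcpt4, Ms4a2 and Mcpt2 were dim on Ezh2_deleted. Among eosinophil genes, Ccr3, the eotaxin receptor, was at -3.90 on WT, -4.27 (dim) and -3.27 on the competitor arrays and -1.41 on Ezh2_deleted, 3.64-fold above the highest, while Epx, eosinophil peroxidase, lay within the wild-type range at -0.55. The 9 measured heat shock genes had a mean level of 3.60 on WT, the lowest of the 8 arrays, and 4.17 on Ezh2_deleted. Hspa1a was at -2.91 on WT, 1.91 and 4.04 on the competitor arrays and -0.46 on Ezh2_deleted. MHC class II genes Cd74, H2-Eb1, H2-Aa and H2-Ab1 were 2.11-fold to 3.34-fold higher than WT and below the double-recipient array.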
